A study of Mus musculus with 2 samples.

Results

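Kappa light chain variable segments were read by 47 of the 41174 probes on the array that were not controls. A probe was counted as a kappa probe where its gene name began with Igkv or Igk-V, which held for 14 probes, or where its description named an immunoglobulin (or Ig) together with kappa, which added 33, 1 of them (X12401) through the letters Ig in IgM. The 47 probes carried 42 gene names in the array files. A RefSeq gene table gave 15 of them one of 14 current Igkv symbols, and the other 32 are called by the name in the files. No kappa probe was named as a constant or joining segment, and none carried the name of a gene outside the locus. Which segment the 32 read was not settled here.

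RNA came from B cells of C57/BL6 mouse spleen, enriched by removing CD43-positive cells and grown with interleukin-4 at 10 ng/ml and lipopolysaccharide at 25 µg/ml. One culture received a retroviral vector for miR-181b with green fluorescent protein (GFP), and the control culture received a GFP vector without it. Both were transduced for 20 h with polybrene (8 µg/ml) and sorted for GFP on day 2, so the RNA is that of transduced cells only. There was 1 biological replicate per vector and 2 arrays with exchanged dyes: the miR-181b RNA was in Cy5 on array 1 and in Cy3 on array 2. The age and sex of the mice, how many were used, and the promoter of the vector were not given in the sources used here. The level of miR-181b itself was not analysed here. With 1 RNA per vector no test between the vectors could be made. Values below are log2 ratios of miR-181b to control RNA: the average over the 2 arrays ± how far each array lies from that average. That distance covers labelling and hybridisation, not variation between cultures or mice.

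A kappa light chain gene is assembled in a developing B cell by joining one of many variable (V) segments to a joining segment upstream of a single constant segment. A mature B cell normally makes 1 light chain, and in the mouse this is mostly kappa. Resting B cells carry the chain in their receptor, and cells that become antibody-secreting plasma cells make far more of its RNA. In a mixed population a V probe reads the summed RNA of all cells that use that segment or one of like sequence. In such bulk RNA, more cells of a type and more RNA per cell cannot be told apart.

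All probes were 60 bases long and differed in sequence, but V segments are alike, and 8 of the 1081 pairs of kappa probes shared a run of at least 20 bases. Those runs linked 12 probes in 5 groups. The pairs below are printed 5′ to 3′ as deposited because each joins probes whose ratios are compared further on, and the capitals mark the run the pair shares. The first pair shared 21 bases and the second shared 26.
Igkv1-132: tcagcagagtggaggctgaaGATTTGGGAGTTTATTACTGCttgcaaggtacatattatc
Igkv1-133: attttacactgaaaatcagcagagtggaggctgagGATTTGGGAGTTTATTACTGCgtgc
Igkv3-12: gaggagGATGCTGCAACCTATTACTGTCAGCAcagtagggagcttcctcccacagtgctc
ENSMUST00000089814: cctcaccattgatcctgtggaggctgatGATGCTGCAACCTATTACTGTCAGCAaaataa

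A further pair shared 25 bases and set a probe within the scanner's range beside one that was saturated.
Igkv4-63: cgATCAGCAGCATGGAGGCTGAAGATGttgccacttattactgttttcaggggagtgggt
LOC674005: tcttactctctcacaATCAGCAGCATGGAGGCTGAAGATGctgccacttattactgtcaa

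The printed runs lie at or just before the end of framework 3 of the V domain, a stretch that V segments hold in common. The letters TATTACTG, part of the codons for the tyrosines and the cysteine that close it, were in 12 of 47 kappa probes (25.5%) and in 0.245% of all probes, read on the printed strand. They lie inside the run shared by the first pair above and inside that shared by the second. Low ratios were also found in probes that hold them. Igkv9-123, whose ratio was among the lowest, is printed with those letters in capitals, beside LOC626104 and TC1460407, the lowest of all, which lack them and are in lower case throughout.
Igkv9-123: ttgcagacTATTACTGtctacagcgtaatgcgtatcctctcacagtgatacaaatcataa
LOC626104: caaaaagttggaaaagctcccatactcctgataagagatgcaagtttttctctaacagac
TC1460407: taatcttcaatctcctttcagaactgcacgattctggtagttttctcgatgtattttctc

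The microRNA expressed from the vector is printed from RefSeq with its seed, bases 2 to 8, in capitals.
mmu-miR-181b-5p: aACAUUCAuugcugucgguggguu

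The match to that seed, TGAATGT, was in 0 of 47 kappa probes on either strand and in 1.6% of all probes. This says only that these letters are not in the 60 bases that the probes cover, since the rest of the transcripts was not searched.

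Kappa V probes were higher in the cells with miR-181b. Over all 47 the median was 0.70 on the log2 scale, a ratio of 1.63. Array 1 gave 0.57 and array 2 gave 0.96. The probes ran from 0.02 to 0.98. Of the 47, 40 were higher on both arrays, against 23.8% of all 25787 measured probes, and 0 were lower on both, against 26.2%. A probe counted as measured where both channels were well above background on both arrays, which all 47 kappa probes were. Averaged over the arrays, with no change of sign between them, 34 of the 47 were at least 1.5-fold higher, against 0.714% of measured probes. On array 1 alone 21 of the 47 were past that fold, against 0.477% of measured probes. On array 2 alone 43 were, against 5.54%, so array 2 placed more probes of any kind past it. At least 1.5-fold lower were 0, against 0.43%. None reached 2-fold on the mean with each array at least 1.5-fold, which 0.0155% of measured probes did.

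Some of the kappa probes exceeded the scanner's range. In 14 of the 47 probes 1 or more channels were saturated, and in all 14 one of these was the miR-181b RNA on array 1, in Cy5. The control RNA on that array, in Cy3, was saturated in 0. On array 2 the miR-181b RNA was saturated in 4 of them and the control RNA in 7. A saturated spot gives only a lower bound of its brightness, so results are given with and without these probes.

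In the 33 probes that were never saturated, the median was 0.73. It was 0.63 on array 1 and 0.88 on array 2, and the lower and upper quartiles were 0.68 and 0.84. Of these, 32 were higher on both arrays, against 24% of never saturated probes on the array, and 29 were at least 1.5-fold higher, against 0.673%. In 20 of the 33 each array on its own reached 1.5-fold. Arrays 1 and 2 differed from their mean by 0.13 at the median over the 33 and by 0.36 at most. The ratio was larger than its own distance in 32 of them. With 2 arrays this is the same fact as a shared sign. The exception was TC1460407. Array 2 gave the higher ratio in 26 of the 33. The contrast of the dyes, Cy5 over Cy3 averaged over both arrays so that the RNAs cancel, was -0.13 at their median.

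In the 14 saturated probes the median was 0.56, from 0.09 on array 1 and 1.17 on array 2. Of these, 6 had opposite signs on the arrays. Array 2 was the higher in all 14, and the dye contrast was -0.58. Saturated probes that were not kappa, 497 in number, lay at -0.51 on array 1 and 0.69 on array 2 with a mean of 0.05. The medians of the saturated kappa probes lay above theirs on both arrays. Higher on both arrays were 8 of the 14, against 11% of all saturated probes, and 5 were at least 1.5-fold higher, against 2.74%.

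The 12 highest ratios were those of probes for Igkv1, Igkv3 and Igkv4 segments and for transcripts without an Igkv symbol. Igkv1-132 had a raw spot intensity of 58587 for the miR-181b RNA and 19615 for the control RNA on array 1. On array 2 the values were 34195 and 32344. Cy5 was the brighter dye in most bright probes of both arrays, and the miR-181b RNA stood far above the control on array 1 and slightly above it on array 2. After dye normalisation the log2 ratios were 0.66 and 1.31, and the mean of 0.98 ± 0.32 was a ratio of 1.98, the highest of the 47.

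Igkv3-12, listed in the files as Igk-V21-12, had raw intensities of 27267 for miR-181b and 9017 for control on array 1. On array 2 they were 14516 and 14355. Its normalised log2 ratios were 0.71 and 1.16, with a mean of 0.94 ± 0.23. ENSMUST00000089814, the probe that shares 26 bases with it, was at 0.84 ± 0.13, a difference smaller than the spread between arrays.

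Igkv1-135 was read by a pair of probes that share no run of 20 bases. They gave 0.90 ± 0.12 and 0.84 ± 0.20, again within the distance between arrays. Igkv4-63 had raw intensities of 43374 and 13898 on array 1 and of 22140 and 25074 on array 2, miR-181b first. Its log2 ratios were 0.74 and 1.02, with a mean of 0.88 ± 0.14.

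The others among the 12 highest have no Igkv symbol in the gene table. LOC675694 was at 0.95 ± 0.36 and LOC383196 at 0.90 ± 0.35, both with more than 1.2 on array 2 and under 0.6 on array 1. LOC636857 at 0.90 ± 0.06 and ENSMUST00000089795 at 0.82 ± 0.06 had nearly the same ratio on both arrays. LOC637047 was at 0.87 ± 0.21 and ENSMUST00000095824 at 0.84 ± 0.13. Neighbours in this order differed by less than their arrays did, so no order within these 12 can be read.

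The 6 lowest of the never saturated probes with 1 sign were higher in miR-181b on both arrays too. ENSMUST00000089820 at 0.67 ± 0.07, LOC669070 at 0.63 ± 0.06 and Igkv19-93 at 0.62 ± 0.09 were still past 1.5-fold. Igkv9-123 had raw intensities of 2409 for miR-181b and 1010 for control on array 1, and of 1296 and 1898 on array 2. Its log2 ratios of 0.47 and 0.36 gave 0.41 ± 0.06. Both arrays placed it below every array value of Igkv1-132, Igkv3-12, Igkv1-135 and Igkv4-63.

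LOC672329 at 0.44 ± 0.08 and LOC626104 at 0.38 ± 0.17 were the others of these 6 under 1.5-fold. LOC626104 was dim, with 343 for miR-181b and 176 for control on array 1 and 206 and 238 on array 2, and its log2 ratios were 0.21 and 0.55. TC1460407 was the dimmest of all and is named because it was singled out after its values were seen. Its raw intensities were 119 and 80 on array 1 and 77 and 106 on array 2, miR-181b first. Its log2 ratios of 0.06 and -0.02 gave 0.02 ± 0.04, so it did not differ from 0 beyond the arrays' distance. The remaining 14 never saturated probes, Igkv8-16 and Igkv6-14 among them, had means of 0.68 to 0.79.

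The 5 brightest kappa probes were all saturated. ENSMUST00000080848, the brightest, had 65233 for miR-181b and 47733 for control on array 1, where only the miR-181b spot was saturated. On array 2 it had 65252 and 65233, both saturated. Its log2 ratios were -0.49 and 1.29. The same pattern held for ENSMUST00000066275 with -0.43 and 1.29, for the Igk-V1 probe in the group of 4 below with -0.25 and 1.29, and for Igkv1-133 with -0.18 and 1.29. In these 4 the value on array 2 is what normalisation assigns to a pair of saturated spots, and no fold is given.

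Igkv4-55 was saturated in the miR-181b RNA on array 1 and in the control RNA on array 2, with log2 ratios of -0.15 and 1.14. Igkv14-111, with 0.00 and 1.19, and LOC674005, with -0.04 and 1.19, were saturated in the same way. Their means of 0.60 and 0.58 lay nearest to 1.5-fold on either side, and they differed from one another by far less than their arrays did. The other 7 saturated probes had means of 0.55 to 0.79. A probe outside the rule, described as a V kappa region without the word immunoglobulin, carries the same transcript name as ENSMUST00000066275 and was never saturated. It gave 0.69 on array 1 and 0.83 on array 2, mean 0.76. The other kappa probe outside the rule, AF152371, was saturated, with -0.93 on array 1 and 1.29 on array 2.

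In both linked pairs in which neither probe was saturated, the ratios differed by less than the arrays did. One is the Igkv3-12 pair above. The probes of the name ENSMUST00000101328 that share 23 bases were at 0.68 ± 0.15 and 0.74 ± 0.11. Another probe of that name, matched to Igkv10-95, was saturated and at 0.55 ± 0.05. The pair of probes named ENSMUST00000089796 lay at 0.66 (saturated) and 0.70. In the printed pairs of Igkv4-63 with LOC674005 and of Igkv1-132 with Igkv1-133, the second probe was saturated, and no order of the pair can be read.

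The largest group of linked probes, 4 in number, held Igkv1-132, Igkv1-133, Igkv2-116 and one of the pair of Igk-V1 probes. Igkv2-116, a pseudogene in the RefSeq table, was at 0.74 ± 0.38 and saturated. With runs of 25 and 24 bases shared with the probes of Igkv1-133 and Igk-V1, its signal cannot be told from theirs. Over all kappa probes, the 12 that shared a run had a median of 0.71 and the other 35 one of 0.70. Among never saturated probes the medians were 0.86 over 6 and 0.72 over 27. Probes alike in sequence can read the same RNA, so the 47 are not separate measurements.

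The descriptions of 28 probes give a class of the V region, V-I to V-V, taken from the kappa protein that the transcript resembles. All 4 probes of class V-III lay between 0.73 and 0.94, with a median of 0.81. Class V-IV had a median of 0.76 over 8 probes and of 0.79 over the 5 never saturated. Class V-V had 0.67 over 10 probes and 0.69 over 7. Class V-II had 0.81 over 4 probes, and its never saturated pair lay at 0.87 and 0.98. The pair of V-I probes, LOC672329 and LOC626104, lay at 0.44 and 0.38. With saturated probes included, classes II to V overlapped one another. Among never saturated probes the V-II pair lay above class V-V, which ran from 0.41 to 0.74. The V-I pair lay below all never saturated probes of classes II to V but Igkv9-123, a V-V probe. The V-I probes were also among the dimmer ones, and the part of intensity in this gap was not tested.

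Named segments with raised ratios lay in all parts of the kappa locus. Igkv numbers rise with distance from the joining segments, and the RefSeq table lists 162 segments in order along the chromosome, with the most distant first. Igkv1-135, Igkv1-133, Igkv1-132, Igkv9-123, Igkv9-120, Igkv2-116 and Igkv14-111 stand within the first 31 of these. Their means ran from 0.41 to 0.98. Igkv10-95, Igkv19-93, Igkv4-63 and Igkv4-55 stand between ranks 51 and 105 and had 0.55, 0.62, 0.88 and 0.50. Igkv8-16, Igkv6-14 and Igkv3-12, nearest to the joining segments, had 0.79, 0.68 and 0.94. Of these segments Igkv1-133, Igkv9-120, Igkv2-116, Igkv14-111, Igkv10-95 and Igkv4-55 had saturated probes. Segments at both ends of the locus were thus near the top, and Igkv9-123 and Igkv1-132, 10 ranks apart, were near the bottom and at the top.

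After loess with the normexp offset of 50, brighter never saturated kappa probes tended to have the higher ratios. Whether this trend holds under other processing was not tested. The dimmest, TC1460407, LOC626104 and U29594, were at 0.02, 0.38 and 0.72. By the scanner's own log ratio they were at 0.11, 0.53 and 0.82. Over the 33 never saturated probes the mean log2 ratio and the mean log2 intensity correlated at r = 0.70 and rho = 0.47, and without TC1460407 at r = 0.57 and rho = 0.41. With the GC content of the probe, between 35.0% and 55.0% over the 47, r was 0.44 and rho 0.51. These describe probes on the same arrays that share RNA and sequence, and no p is given.

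Since most kappa probes are bright, they were set beside other probes of like brightness. In the brightest decile of measured probes, 20 never saturated kappa probes had a median of 0.82, with a lowest value of 0.62. The other 2048 never saturated probes of that decile had a median of 0.00, and 95% of them lay under 0.41. At least 1.5-fold higher were all 20, against 3.77% of the never saturated probes of that decile. Kappa probes also stood above others in the raw spot intensities, before background correction and dye normalisation. On array 1 the raw miR-181b intensity was 2.98 times the control's at the median of the 20, against 1.88 times for the other 2048. On array 2, with the dyes exchanged, the ratios were 0.85 and 0.44. The raw ratios of all probes move with the dye, and the kappa probes stood above the rest under both dye orders.

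The size of the ratio depends on how the dyes were normalised. When each array was centred on its median in place of loess, the median of all measured probes fell to -0.18 and that of the never saturated kappa probes to 0.39, a gap of 0.57 between them. Among never saturated probes of the brightest decile the kappa median was then 0.41 and that of the others -0.40, where loess gave 0.82 and 0.00. In that setting 25 of 33 were higher on both arrays, against 9.33% of never saturated probes, and 0 of 33 reached 1.5-fold. Over the array 10 probes were then at least 1.5-fold higher and 1131 lower, where loess gave 184 and 111. In the brightest decile the kappa V probes thus stood above the others in both settings, while their count past 1.5-fold rests on loess.

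Other immunoglobulin chains were compared because a light chain is used only together with a heavy chain. Heavy-chain V probes, 18 of 19 measured, had a median of 0.64, and 0.70 over the 13 never saturated. Of these 13, 9 were at least 1.5-fold higher, against 0.673% of never saturated probes on the array. These levels lie inside the range of the kappa probes. Among the heavy V probes, 3 of Igh-VJ558 passed the 2-fold rule that no kappa probe passed, against 0.0155% of measured probes. By a wider rule for heavy V probes, chosen after the data were seen, the never saturated median was again 0.70, over 35 probes. Of these, 27 were at least 1.5-fold higher, beside the same 0.673%. Of the 170 never saturated probes at least 1.5-fold higher on the whole array, 29 (17.1%) were kappa probes and 27 were heavy V probes by the wider rule.

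Lambda, the other light chain, could not be set against kappa. Of its 10 measured probes 9 were saturated, with a median over the 10 of 0.39 (-0.22 on array 1 and 1.06 on array 2). The never saturated one reads Igll1, the surrogate light chain gene of early B cell precursors, at 0.06.

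Of 16 partner genes listed for light chains, 4 were matched to measured probes, all under older names in the files, and 12 were matched to no probe, Igkc and the lambda constant genes among them. In each case the value is that of the brightest probe. Ighm, the heavy chain of IgM, was saturated at 0.16 (-0.95 and 1.27), and its other probes gave 0.30 and 0.69. Ighg1, the heavy chain of IgG1, to which interleukin-4 directs switching, was not saturated and was at 0.36 ± 0.15, higher on both arrays. Jchain, which joins secreted IgM and IgA, was saturated at 0.44 (-0.41 and 1.29), with 0.66 from its other probe, and Iglv1 was saturated at 0.18. The list's median was 0.27 with these probes, 3 of 4 saturated, and 0.52 without saturated probes. By the brightest probes 0 of 4 were at least 1.5-fold higher, against 0.714% of measured probes.

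The genes that assemble the kappa locus were near 0. Of 9 genes of V(D)J recombination, 8 were measured, with a median of 0.03. At least 1.5-fold higher or lower were 0, against 0.714% and 0.43% of all measured probes. Only Xrcc5, a subunit of the Ku end-binding complex, had the same sign on both arrays, at 0.24 ± 0.14. Of all measured probes 23.8% were higher on both arrays and 26.2% lower. Rag1, of the recombinase, was at -0.05 ± 0.18, Dntt, which adds bases at the joints, at -0.03 ± 0.14, and Xrcc4 at -0.02 ± 0.16. Rag1 was dim, with 1 of 3 probes measured, at a mean log2 intensity of 6.59 beside 6.63 for TC1460407. A ratio near 0 at that level does not show that Rag1 was unchanged. Xrcc6 was at 0.11 ± 0.15, Prkdc at 0.09 ± 0.15, Lig4 at 0.19 ± 0.33 and Dclre1c at -0.14 ± 0.18. Rag2 was not well above background.

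Factors that act on the kappa enhancers and promoters did not move as a group. Of 22 listed, 21 were measured, with a median of 0.01. Both arrays placed 3 higher and 4 lower, against 23.8% and 26.2% of all measured probes. Neither count was above its share. None was at least 1.5-fold higher or lower, against 0.714% and 0.43%. Irf4, which with Spi1 or Spib binds the kappa enhancers and which rises in plasma cells, was at 0.36 ± 0.19. Spi1 was at 0.38 ± 0.49 and Spib at 0.01 ± 0.27. Pou2f2, which binds the octamer of V promoters, was at 0.44 ± 0.63, and its coactivator Pou2af1 was saturated at 0.20 ± 0.88, so neither had a sign shared by the arrays.

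The 4 lower on both arrays were Ikzf3, Id2, Id3 and Ikzf1. Id2 and Id3, which hold E proteins off DNA, were at -0.54 ± 0.33 and -0.29 ± 0.07. Ikzf3 was at -0.54 ± 0.03 by its brightest probe, while its other probes gave 0.14 and -0.12. Ikzf1 was at -0.15 ± 0.03. The E protein genes Tcf3, Tcf4 and Tcf12 were at 0.14 ± 0.23, 0.16 ± 0.11 and -0.11 ± 0.31 by their brightest probes. The other probes gave 0.34 for Tcf3 and -0.10 and -0.01 for Tcf4. Those of Tcf12 gave 0.21, 0.22, 0.09 and -0.19. Nuclear factor kappa B takes its name from a site in the kappa enhancer, and its subunits Nfkb1 and Rela were at -0.23 ± 0.24 and 0.25 ± 0.26. The others were Irf8 (saturated), Pax5, Ebf1, Foxo1, Ctcf, Pou2f1 and Ets1, with means between -0.05 and 0.07 by their brightest probes. Further probes gave 0.30 for Irf8, 0.35 for Pou2f1, 0.16 for Ebf1, 0.05 for Pax5 and -0.06 for Foxo1. Those of Ets1 gave -0.02, -0.03 and -0.14. Rel was not well above background.

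Markers of antibody-secreting cells were partly higher beside the kappa probes. Of 10 plasma cell markers, all measured and 2 saturated, 7 were higher on both arrays, against 23.8% of all measured probes, 0 were lower on both, and 2 were at least 1.5-fold higher, against 0.714%. At the median they stood at 0.34, from 0.17 and 0.47 on the arrays. With median centring in place of loess the list's median was -0.0055, where that of all measured probes was -0.18. Xbp1, which drives secretory expansion, was at 0.99 ± 0.49, and Edem2, of the degradation of misfolded secretory proteins, at 0.74 ± 0.57. Ell2, which favours the secreted form of heavy-chain RNA, was at 0.48 ± 0.08. Irf4, given above, was the next. The others of the 7, Fkbp11, Prdm1 and Sdc1, were lower, at 0.32 ± 0.07, 0.19 ± 0.09 and 0.15 ± 0.06. The 3 without a sign shared by the arrays, named after their values were seen, were Jchain, given above, Mzb1, saturated with -0.95 and 1.27, and Tnfrsf17 with 0.19 and -0.05. Their part in the kappa result was not tested.

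Of 9 B cell markers, all measured, 1 was higher on both arrays, Cd79a at 0.86 ± 0.70, and the median was 0.17 (-0.47 and 0.74), with 4 saturated. These markers were well above background in both RNAs. Genes of the lists below were so too, so detection alone does not tell the cell type. Pre-B cell markers had a median of -0.01 over 8 of 9 measured, and both arrays placed 3 higher and 2 lower. T cell markers had -0.07 over 7 of 8, with 2 higher and 3 lower. Macrophage and monocyte markers had 0.02 over 6 of 6, with 2 higher and 2 lower, and granulocyte markers -0.10 over 3 of 5, with 1 higher and 2 lower. Natural killer cell markers had 0.17 over 2 of 4, with 1 higher. All counts in this paragraph stand beside 23.8% of all measured probes higher on both arrays and 26.2% lower. The one marker of these 5 lists past 1.5-fold was Prg2, an eosinophil granule protein, at 0.70 ± 0.02, and its part in the kappa result was not tested.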

How the data were processed

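The deposited scanner files came from Agilent Feature Extraction 9.1.3.1, per the file headers. Each spot has a mean intensity and a local background intensity per dye, background-subtracted and dye-normalised intensities, and a log10 ratio of Cy5 to Cy3, all as deposited by the authors. The authors also deposited log2 ratios for both arrays, matched to probes by value: 40901 single-spot probes fitted the scanner's ratio within 0.001 after constants of 0.0011 and 0.0327 were added and array 2 was turned. The column medians were -0.0626 and -0.0704. The row identifiers matched no probe column. Scale, direction and centring were settled by this match.

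Each array had 45018 spots (43379 not controls). Per channel, 64.7% to 67.7% of spots exceeded background clearly and 71 to 562 were saturated. Here normexp (offset 50) corrected the background and loess the dyes (limma 3.58.1, R 4.3.3), within each array, with control spots at weight 0. Outlier spots (7 and 21) were dropped and saturated spots kept. Ratios were turned to miR-181b over control, and spots of a probe were averaged. Listed genes use their brightest measured probe. The script was tested on simulated data. Members and lists were chosen with earlier results of these data known. Named probes were the 12 highest and 6 lowest never saturated with 1 sign, the 5 brightest, those nearest to 1.5-fold, and all genes of the partner, recombination and enhancer lists, with up to 4 of other lists. The further plasma cell markers and TC1460407 were named after their values were seen. Gene symbols come from a RefSeq table (GRCm38.p6). No coordinates are given, since the array's build is not given in the sources used here. The alternatives changed background correction, dye normalisation, filters, saturation, arrays used and the fold threshold.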

Additional observations from a re-analysis of the deposited data

How the results depend on the processing

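With 1 RNA per vector nothing here measures variation between cultures, and the saturated probes hold bounds. No median ratio over the kappa probes or their classes changed sign, and 0 kappa probes were at least 1.5-fold lower, under any alternative tried. No paired analysis was possible because both arrays compare the same 2 RNAs. Median centring in place of loess moved the most. The kappa median fell to 0.30 (never saturated 0.39), the dye contrast changed sign from -0.16 to 0.12, and 0 probes were at least 1.5-fold higher with or without the saturated ones. Class medians fell to 0.38 (V-II), 0.40 (V-III), 0.39 (V-IV), 0.25 (V-V) and 0.45 (Igkv1 family). List medians were then 0.28 for heavy-chain V probes, -0.05 for lambda, -0.15 for partners, -0.28 for B cell markers, -0.22 for recombination, -0.36 for enhancer factors, -0.0055 for plasma cell, -0.17 for pre-B cell, -0.15 for T cell, -0.19 for macrophage, 0.06 for natural killer and -0.06 for granulocyte markers. The median of all measured probes was -0.18 under that centring. With the 2-fold rule the counts of kappa probes were 0 and 0. The scanner's log ratio gave -0.14 for T cell and -0.20 for granulocyte markers. An offset of 0 gave -0.20 for granulocyte markers, and the authors' deposited table gave 0.08 for macrophage and -0.19 for granulocyte markers. Natural killer markers were at 0.0097 with no filter and 0.34 above the median intensity, where granulocyte markers were at 0.28. These lists rest on 2 to 7 genes, and the cause was not tested. Each array alone gave a class V-IV median of 0.68 to 0.96, pre-B cell markers from -0.03 to 0.08, macrophage markers from -0.05 to 0.0082 and granulocyte markers from -0.06 to -0.04. At least 1.5-fold higher were 21 to 43 kappa probes. Over all probes at least 1.5-fold higher or lower, the scanner's log ratio gave 305 and 263 and the authors' deposited table gave 326 and 247. An offset of 0 gave 198 and 175, array 2 alone 1430 and 316, and array 1 alone 123 and 358. Of single named genes and probes, 53 moved by more than the standard deviation of their 2 arrays under median centring. Up to 9 did so under each other alternative. A single array cannot move a value by more than that deviation, by construction.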
